A study of Mus musculus with 4 samples.

Results

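The mouse genes for miR-338 and miR-3065 are read from opposite strands of the same stretch of chromosome 11, so that each hairpin is the antisense of the other. Both arms of both hairpins, mmu-miR-338-3p, mmu-miR-338-5p, mmu-miR-3065-5p and mmu-miR-3065-3p, were followed here, 4 of 1907 mature miRNAs listed. The 4 were chosen by name and position, with their values in these libraries already known, so their differences between the groups are given as a description, with no p-value. Whether a member passed the threshold of the fit over all miRNAs is stated beside the share of all miRNAs that did, and nothing is read from it. Small RNA was sequenced from liver of C57BL/6 mice aged 15 weeks. The control group had 2 libraries, and so had the group given thioacetamide (TAA), a hepatotoxin that induces liver fibrosis, at 200 mg/kg by intraperitoneal injection, 3 doses a week during 10 weeks. No vehicle for the controls and no genetic change in either group is named in the labels. The design text calls the libraries biological replicates without naming animals, so that the spread between them may be partly technical.

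A microRNA is cut from a hairpin in a longer transcript, and 1 arm of the hairpin is usually kept more often than the other in the Argonaute protein that silences target mRNAs. Targets are recognised mainly by the seed, bases 2 to 8 of the mature strand, so the arms of a hairpin, and the hairpins of opposite strands, have different targets. miR-338 is carried in an intron of Aatk, the gene of a kinase of the nervous system, and miR-338-3p is best known from oligodendrocytes, where with miR-219 it promotes differentiation. An antisense hairpin cannot come from the host transcript and needs transcription of the other strand.

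The sequences show how the mature strands are related, and they are given with the seed in capitals (RefSeq, GRCm38.p6, 5′ to 3′). The table used held 3 of the 4 mature sequences and did not list mmu-miR-3065-3p.
mmu-miR-338-3p: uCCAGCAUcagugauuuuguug
mmu-miR-338-5p: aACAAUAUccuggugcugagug
mmu-miR-3065-5p: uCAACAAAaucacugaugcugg
The 3 strands had 3 different seeds, and no other of the 1679 mature names in the table had any of these seeds. mmu-miR-338-3p lies at chr11:120014781-120014802 on the minus strand and mmu-miR-3065-5p at chr11:120014780-120014801 on the plus strand. They share 21 positions, over which they are perfectly complementary. The seed of each therefore faces bases 16 to 22 of the other. mmu-miR-338-5p lies at chr11:120014816-120014837 on the minus strand.

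The hairpins are shown next because the 2 strands fold into similar stems, with the mature strands listed in the table in capitals.
Mir338 hairpin: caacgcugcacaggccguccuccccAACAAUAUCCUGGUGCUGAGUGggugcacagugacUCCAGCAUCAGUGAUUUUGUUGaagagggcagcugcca
Mir3065 hairpin: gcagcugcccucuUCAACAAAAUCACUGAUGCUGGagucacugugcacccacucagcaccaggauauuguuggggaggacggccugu
The Mir338 hairpin covers 98 bases at chr11:120014765-120014862, and the Mir3065 hairpin covers 87 bases at chr11:120014767-120014853, all of them inside the Mir338 hairpin. Minimum free energies computed with RNAfold were -41.9 kcal/mol for Mir338 and -39.0 kcal/mol for Mir3065, and each structure had 33 base pairs. G-U pairs, which turn into unpaired A and C on the other strand, numbered 3 and 4. In GENCODE (GRCm38) the hairpins lie within Aatk, a protein-coding gene of the minus strand at 120007313 to 120047167 of chromosome 11. They overlap no Aatk exon. In its 3 protein-coding transcripts that span the site, of 14 exons each, they lie in the intron between exons 7 and 8, 596 bases beyond exon 7 and 1030 bases before exon 8. Mir338 is on the strand of Aatk and Mir3065 on the opposite strand, where no gene other than Mir3065 itself was annotated.

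**Figure D1:**
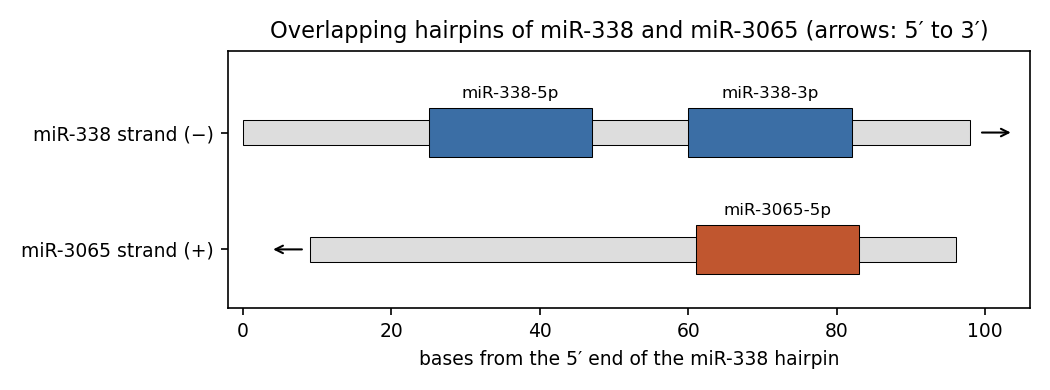
Map of the overlapping hairpins of miR-338 (minus strand) and miR-3065 (plus strand), with distance from the 5′ end of the Mir338 hairpin in bases on the x axis; grey bars are hairpins and coloured boxes mature strands. miR-338-3p and miR-3065-5p face each other over 21 bases; mmu-miR-3065-3p is not drawn because the table used gave no position for it.

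Libraries held 42609845 to 48878003 miRNA counts, so that 1 count corresponded to 0.0195 to 0.0236 CPM (counts divided by library size, with the TMM factors of edgeR). The 5 hepatocyte markers summed to 349916 and 380614 CPM in the controls and to 317846 and 328676 CPM in TAA-treated liver. Among them miR-192-5p, the most abundant, was at 225049 to 264434 CPM and miR-122-5p, the defining miRNA of hepatocytes, at 17376 to 21608 CPM, and 0 of the 5 were called by edgeR, DESeq2 or limma-voom (2 at an unadjusted p under 0.05). Of 6 glial miRNAs (miR-219a and miR-138), 3 were tested and 0 were called by any of these tools (1 at an unadjusted p under 0.05). They summed to 12.9 to 14.7 CPM per library, and miR-219a-2-3p was at 0 in all 4. Over all 4 libraries the most abundant glial miRNA was miR-219a-1-3p, at 5.55 and 5.61 CPM in control against 7.77 and 7.62 CPM after TAA (log2 fold change 0.46). The other 2 tested, miR-219a-5p and miR-138-5p, had log2 fold changes of -0.27 and -0.31. Of 8 neuronal miRNAs 5 were tested and 0 were called by any of the tools (0 at an unadjusted p under 0.05), with sums of 64.9 to 72.6 CPM. Most of that was miR-128-3p, which is not limited to neurons (38.9 to 48.8 CPM), and miR-124-3p, the defining one, had 0 and 2 counts in control and 0 and 5 after TAA. Sums over leukocyte markers were 874 and 1384 CPM in control against 1850 and 1628 CPM after TAA (2 of 5 called higher: miR-150-5p and miR-155-5p), mostly of miR-142a-5p. Those over epithelial markers were 387 and 428 against 360 and 333 CPM (2 of 5 called lower: miR-141-3p and miR-200c-3p), with miR-200b-3p the most abundant. Of 5 mesenchymal markers miR-214-3p was called higher, with list sums of 23348 to 31605 CPM, mostly of miR-143-3p, that overlapped between the groups. The calls in these 3 lists are those of edgeR. DESeq2 called 3 leukocyte, 2 epithelial and 1 mesenchymal marker, and limma-voom called 2, 2 and 1. At an unadjusted p under 0.05 in edgeR there were 4, 2 and 2. Of the 2 endothelial markers, the more abundant miR-126a-5p and miR-126a-3p, 0 were called by any of the tools (0 at an unadjusted p under 0.05). The part of these cell types in the values below was not tested, and in whole liver fewer cells of a type and less RNA per cell cannot be told apart.

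mmu-miR-338-3p, the main arm of its hairpin, was the most abundant of the 4 members in every library. Control 1 held 2090 counts of it and control 2 held 2525, against 2112 in TAA 1 and 2144 in TAA 2. After scaling these were 49.4 and 59.1 CPM in control against 46.5 and 41.8 CPM in TAA-treated liver, which placed it between rank 155 and rank 181 of the miRNAs of a library. Both TAA values lay below both control values, by a margin smaller than the gap between the controls. Group means were 54.2 ± 6.86 and 44.1 ± 3.31 CPM (SD, n = 2), and the fitted log2 fold change of edgeR was -0.30 (SE 0.17). The unscaled counts of the groups overlapped, so the groups separated only after scaling.

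mmu-miR-338-5p, the other arm, had 558 counts in control 1, 319 in control 2, 393 in TAA 1 and 348 in TAA 2. That is 13.2 and 7.46 CPM against 8.65 and 6.78 CPM. Control 1 stood above the other 3 libraries, and control 2 lay below TAA 1, so the groups overlapped. The means were 10.3 ± 4.04 and 7.72 ± 1.32 CPM (SD, n = 2), with a log2 fold change of -0.42 (SE 0.29). Its direction rested on control 1: without that library the log2 fold change was 0.028, and without control 2 it was -0.78 and past the threshold.

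mmu-miR-3065-5p, the antisense partner of the main miR-338 arm, was rare in control liver and rarer after TAA. It had 31 and 34 counts in the controls, against 8 and 3 in the TAA libraries. The exact 95% Poisson intervals were 21.1 to 44.0 and 23.5 to 47.5 counts in control and 3.45 to 15.8 and 0.619 to 8.77 counts in TAA-treated liver, which cover counting error only. No TAA interval reached the intervals of the controls. In CPM the controls stood at 0.732 and 0.795 and the TAA libraries at 0.176 and 0.0585, with means of 0.764 ± 0.0446 and 0.117 ± 0.0831 (SD, n = 2). The controls differed by 1.09-fold, and TAA 1 exceeded TAA 2 by 3.01-fold on 11 counts in all. Pooled, 65 control counts against 11 TAA counts gave a ratio of 6.72 after scaling, with a counting interval of 3.52 to 14.1, and the fitted log2 fold change was -2.70 (SE 0.58).

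mmu-miR-3065-3p, the other antisense arm, had 8 counts in control 1, 13 in control 2, 0 in TAA 1 and 5 in TAA 2. In CPM these were 0.189 and 0.304 against 0 and 0.0975; a count of 0 allows up to 3 counts, or 0.066 CPM, in TAA 1 as a one-sided limit, and the upper end of its two-sided Poisson interval was 3.69 counts. Both TAA values were below both control values, but the Poisson intervals of control 1 (3.45 to 15.8 counts) and TAA 2 (1.62 to 11.7 counts) overlapped. It did not reach the minimum for testing and was not among the miRNAs of the main fit. The order of levels was miR-338-3p, miR-338-5p, miR-3065-5p and miR-3065-3p in 3 libraries. In TAA 2 the 2 miR-3065 arms were in the other order, at 3 and 5 counts, and their intervals overlapped.

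**Figure D2:**
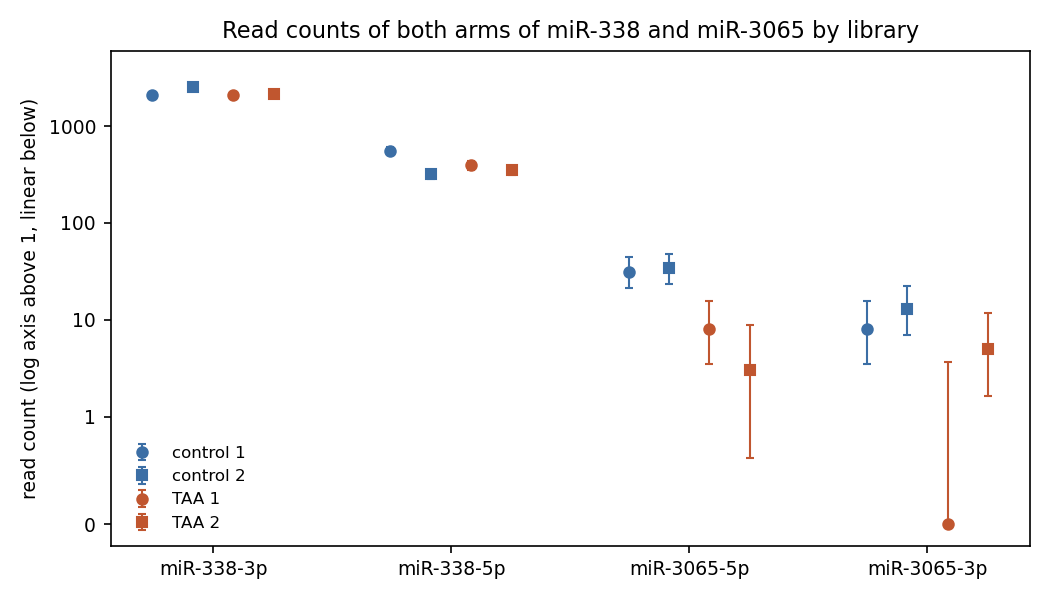
Read counts of the 4 members (x axis) in each library, on a y axis that is logarithmic above 1 and linear below; points are libraries and bars exact 95% Poisson intervals. miR-338-3p had 2090 to 2525 counts in all libraries, while miR-3065-5p had 31 and 34 in control against 8 and 3 in TAA-treated liver.

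In the edgeR fit over all miRNAs, 1 of the 3 members tested, mmu-miR-3065-5p, was called, as lower. Of all 644 miRNAs tested 16.6% were called and 2.64% were called lower. Both TAA libraries lay below both controls in 2 of the 3, mmu-miR-338-3p and mmu-miR-3065-5p, against 25.6% of all tested. Because the members were chosen with these results known, nothing is read from those counts. mmu-miR-3065-5p also passed the filter on low counts (about 0.222 CPM in 2 libraries) only through the controls, since both TAA libraries lay below that minimum. It was not called without TAA 1 (log2 fold change -3.65), without TAA 2 (-2.09), or without the miRNAs of the Dlk1-Dio3 cluster of chromosome 12 (-2.67).

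**Figure D3:**
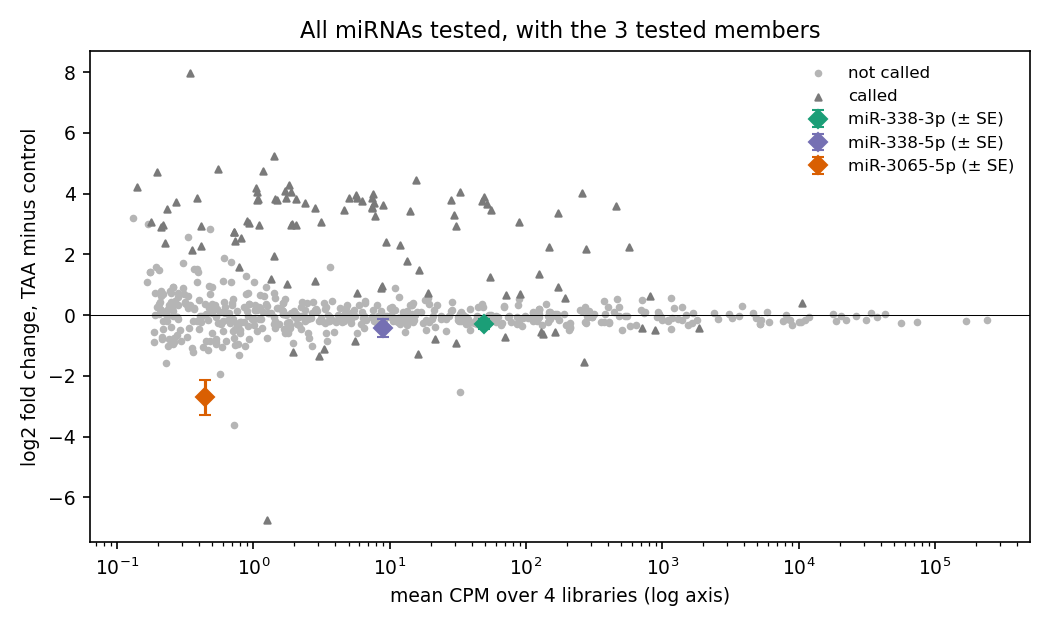
Log2 fold change (TAA minus control) against mean CPM on a log axis for the 644 miRNAs tested; triangles passed the edgeR threshold, and diamonds with SE bars are the 3 tested members. miR-338-3p (-0.30) and miR-338-5p (-0.42) lie near 0, and miR-3065-5p (-2.70) lies lower, at the low-count end of the plot.

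The share of reads between the strands needs no scaling, since all 4 members are counted in the same library. miR-3065 took 39 of 2687 reads of the pair in control 1 and 47 of 2891 in control 2. It took 8 of 2513 in TAA 1 and 8 of 2500 in TAA 2. The shares were 1.45% (95% Wilson interval 1.06% to 1.98%) and 1.63% (1.22% to 2.16%) in control against 0.318% (0.161% to 0.627%) and 0.320% (0.162% to 0.630%) in TAA-treated liver. The groups did not overlap, nor did their intervals, which cover counting error only. miR-338 reads exceeded miR-3065 reads 67.9 and 60.5 times in control and 313 and 312 times in TAA-treated liver. As log2 ratios with 0.5 added to each count the means were 5.99 ± 0.12 and 8.20 ± 0.0053 (SD, n = 2), a difference of 2.21. A difference between replicates of a group was not detectable at this depth (Fisher's exact test on reads of 2 libraries, two-sided, p = 0.664 for the controls and 1 for TAA; adjusted over 6 comparisons 0.797 and 1).

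Reads that fit more than 1 annotated miRNA were set aside as ambiguous in the deposited counts, and none of the sources used here says whether the counting used the strand. Ambiguous reads numbered 892 in control 1, 962 in control 2, 873 in TAA 1 and 1068 in TAA 2. That is 0.381 to 0.498 times the counts of mmu-miR-338-3p alone, although 21 of its 22 bases lie opposite mmu-miR-3065-5p. Their number exceeded the counts of miR-3065 in every library, and which miRNAs they came from cannot be read from these files. Mir30e, whose hairpin overlaps that of Mir30f on the opposite strand by 92 bases, had 432418 to 500861 counts in a library. Whether the counting used the strand was not tested. If every ambiguous read were given to miR-3065, the log2 strand ratio would be 1.51 and 1.49 in the controls, 1.51 in TAA 1 and 1.21 in TAA 2. The groups would then overlap, with means of 1.50 and 1.36, and the turned order of the means would rest on TAA 2. The number of ambiguous reads largely sets this ratio, so it is a bound and not an estimate.

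The arms of miR-338 were divided less evenly between replicates than between groups. mmu-miR-338-5p made 21.1% of miR-338 reads in control 1 (95% Wilson interval 19.6% to 22.7%) and 11.2% in control 2 (10.1% to 12.4%). In TAA 1 and TAA 2 it made 15.7% (14.3% to 17.2%) and 14.0% (12.7% to 15.4%), both between the controls. The log2 ratio of 3p to 5p averaged 2.44 ± 0.76 in control and 2.52 ± 0.14 in TAA-treated liver (SD, n = 2). The controls differed by 1.08 on that scale (Fisher's exact test on the reads of these 2 libraries, two-sided, p = 1.84e-23, adjusted over the 6 comparisons 1.10e-22), and the TAA libraries by 0.20 (p = 0.0871, adjusted 0.174). That test compares libraries, not conditions, and its p covers counting error only, which replicates exceeded over all miRNAs.

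This gap was set beside those of the 149 hairpins, miR-338 included, whose arms come from no other hairpin and each average 20 counts or more. That average was taken over all 4 libraries, so hairpins with few counts in the controls could pass. The median gap between the controls was 0.245 on the log2 scale, and 9 of the 149 hairpins had a larger one than miR-338. The largest, 5.18, was that of Mir154, named after its values were seen, whose 3p arm had 0 and 10 counts in the controls. Mir19a was also among the 9 (gap 1.26), with 28 and 31 counts of its minor arm in the controls. Between the TAA libraries the median was 0.182, and 73 hairpins had a larger gap than miR-338. The minor arm was higher in control 1 than in control 2 in 76 of the 149 hairpins, with a median difference of 0.020, so minor arms in general were not higher in control 1. The minor arm took 15.4% of miR-338 reads over all libraries, against a median of 6.59% over the 149.

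For miR-3065 the division between arms could not be read at this depth. The 3p arm made 8 of 39 reads in control 1 and 13 of 47 in control 2, which is 20.5% (95% Wilson interval 10.8% to 35.5%) and 27.7% (16.9% to 41.8%). In TAA 1 it made 0 of 8 and in TAA 2 it made 5 of 8 (30.6% to 86.3%). The replicates after TAA were farther apart than the groups, and the 5p arm led in 3 of the 4 libraries.

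**Figure D4:**
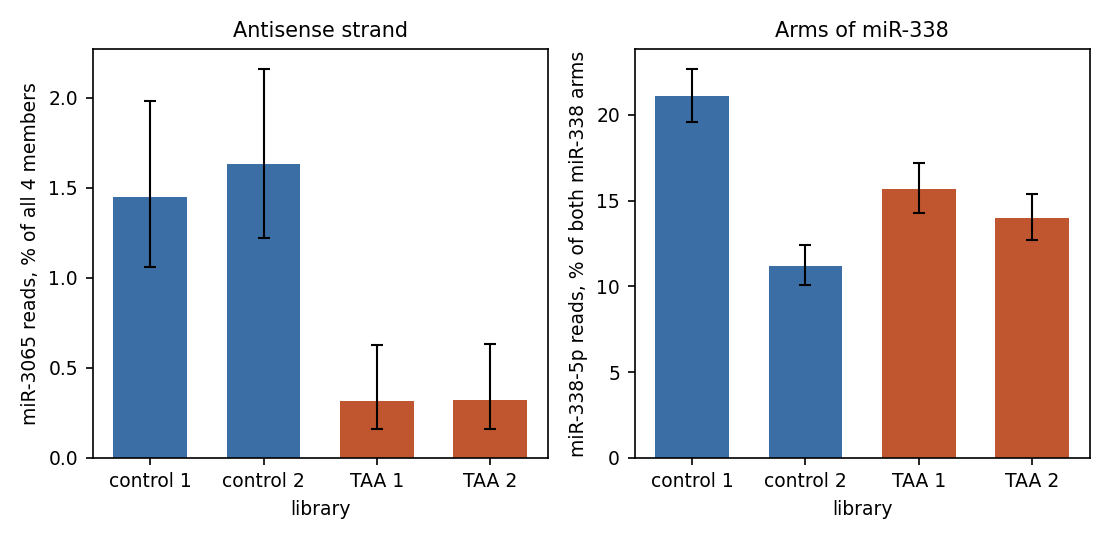
Share of miR-3065 among the reads of all 4 members (left) and share of miR-338-5p among the reads of both miR-338 arms (right), in percent for each library; bars start at 0 and error bars are 95% Wilson intervals. The antisense share was 1.45% and 1.63% in control against 0.318% and 0.320% in TAA-treated liver, whereas the miR-338-5p share of both TAA libraries lay between those of the controls.

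Other overlapping hairpins were set beside this pair. GENCODE held 32 pairs of miRNA hairpins on opposite strands that overlap by at least 20 bases, and in 17 of them the weaker hairpin had 0 counts in all libraries. The counts list mature miRNAs by name, and several of these weaker hairpins carry only a predicted gene name beginning with Gm. Such a hairpin may have no listed miRNA to be counted under, so its 0 cannot be read as a silent strand. Mir5615-1 and Mir5615-2 share a mature name, so their reads cannot be told apart, and that pair was left out of what follows. In 10 of the other pairs both hairpins were counted in every library, Mir338 and Mir3065 among them. In 5 of the 10 an arm is also listed at another hairpin, so that its reads cannot be assigned to 1 site. The mean log2 strand ratio ran from 0.375 to 15.3 over the 10, and that of Mir338 over Mir3065, 7.09, was the fifth highest. Both hairpins reached 1 CPM in 4 of the 10 pairs. Mir486 over Mir3107, whose mature strands are near-identical so that the counting may have split reads between them, was at 1.02 to 1.08 in every library, and Mir3073b over Mir3073a at 0.95 to 1.21. Such a split could hold the ratio of Mir486 over Mir3107 steady whatever either strand did, so nothing is read from its constancy. Mir3073b over Mir3073a kept nearly the same ratio in all 4 libraries. Mir24-1 over Mir3074-1 was at 9.14 and 8.80 in control against 8.98 and 8.24 after TAA, and Mir30e over Mir30f at 14.4 and 13.8 against 13.1 and 12.5. Mir24-1 and Mir3074-1 belong to the 5 pairs with an arm listed at another hairpin, so their ratio is not that of this site alone.

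The log2 ratio in TAA minus that in control was 2.21 for Mir338 over Mir3065 and between -1.31 and 1.57 in the other 9 pairs. The lowest was that of Mir30e over Mir30f, and the highest that of Mir1b over Mir1a-2, which had 1 to 11 counts per hairpin. The groups did not overlap in Mir338 over Mir3065 and in 3 of the other 9. Among those 3 was Mir486 over Mir3107, with a difference of only 0.0449 and reads that may have been split between near-identical strands. The 10 also leave out pairs whose weaker hairpin had 0 counts in some library, such as Mir292b and Mir292, named after its values were seen. Mir292 had 6 and 8 counts in the controls and 0 in both TAA libraries, so that its ratio after TAA is not given. Whether Mir338 over Mir3065 differs from other pairs was not tested.

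**Figure D5:**
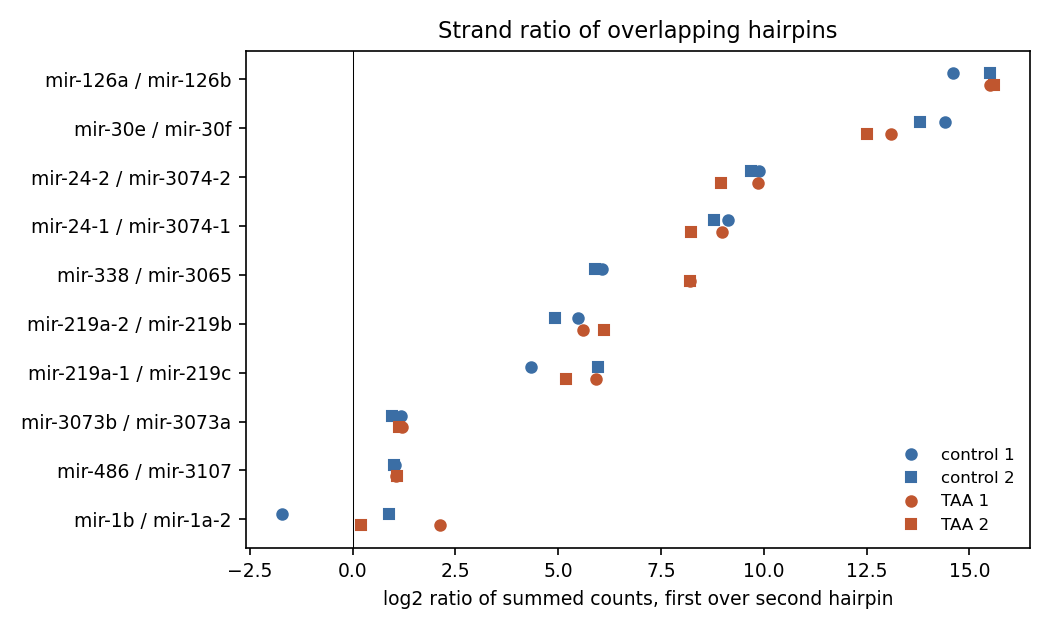
Log2 ratio of summed counts of the 2 hairpins of each opposite-strand pair counted in every library (x axis), first over second hairpin, with 1 point per library. The pair that shares a mature name is left out. Mir338 over Mir3065 stood at 6.07 and 5.90 in control and at 8.20 in both TAA libraries.

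The nearest other hairpins with listed miRNAs on chromosome 11 were Mir6935, 332 kb away on the distal side, and Mir6936 and Mir1932, at 610 and 624 kb. miR-6936-3p, one of 2 neighbours that were tested, had 11 and 8 counts in the controls, 8 in TAA 1 and 17 in TAA 2, and was not called. The other, miR-7236-3p, had 44 and 29 against 47 and 21 counts and was not called either.

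Across the 4 libraries the tested members did not share 1 pattern. Likeness was measured as the distance between log2 CPM values centred on each miRNA's mean, over 644 miRNAs, and 4 libraries that share their scaling are few for it. miR-338-3p and miR-338-5p were 0.78 apart, and 392 miRNAs were nearer to miR-338-3p than its own other arm. The 3 nearest to miR-338-3p were miR-671-5p (distance 0.057), let-7f-2-3p (0.060) and miR-101b-3p (0.083). All 3 were highest in control 2. The nearest to miR-338-5p was miR-145a-5p (0.073), with 307 and 175 CPM in control against 197 and 166 CPM after TAA, then miR-7063-5p (0.28) and miR-187-3p (0.29). These were highest in control 1. miR-3065-5p had no close match: the nearest were miR-741-3p (1.4), miR-465b-3p (1.5) and miR-465b-5p (1.6), from a family of near-identical copies, and miR-338-3p stood at 2.7. miR-741-3p was at 3.87 and 4.77 CPM in control against 2.24 and 1.15 CPM after TAA.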

How the data were processed

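Libraries came from liver RNA, prepared with a TruSeq kit for small RNA per the labels' protocols. The authors deposited raw read counts per mature miRNA. Bowtie, HTSeq and the mm10 build are named, per the submitters' processing notes. For their versions, the strand setting and the miRNA release: not given in the sources used here. Rows that name no miRNA stayed out of all totals: reads outside annotated miRNAs made 22.8% to 26.4% of a library, unaligned reads 7.11% to 8.49%, and ambiguous reads at most 0.00143%.

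The quasi-likelihood F test of edgeR 4.0.16 (R 4.3.3) was fitted to all miRNAs that passed filterByExpr, with TMM factors. A miRNA was called at a Benjamini-Hochberg adjusted p under 0.05 over the 644 fitted. SE stands for the absolute log2 fold change over the square root of F. The script was tested on simulated data. Replicates differed beyond read sampling (chi-square per degree of freedom 237 in control, 324 in TAA). Ratios used 0.5 added to each count, and intervals the 95% level. Stems were folded with RNAfold 2.7.2. Hairpins came from GENCODE for 1905 of 1907 names, sequences from RefSeq.

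The members, the lists and the tests were chosen with earlier results of these data known. Named are the members, each list's called and most abundant miRNAs, the 3 nearest patterns per tested member, pairs at 1 CPM in both hairpins, and neighbouring hairpins; the pairs and neighbours at the ends of a range were named after their values were seen. Alternatives were other scaling factors, filters and tests (DESeq2 1.42.0, limma 3.58.1 with voom), the replicate number as a block, omission of each library in turn, and omission of the Dlk1-Dio3 miRNAs or of the most abundant one.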

Additional observations from a re-analysis of the deposited data

How the results depend on the processing

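mmu-miR-338-3p was lower after TAA in all 14 alternative fits (log2 fold change -0.47 to -0.17) and called in 0. mmu-miR-338-5p was lower in 13 of 14 and called in 1; leaving out a library moved it from -0.78 (without control 2) to 0.028 (without control 1). mmu-miR-3065-5p was lower in all 13 fits that kept it and called in 10; leaving out a library gave -3.65 (without TAA 1) to -2.09 (without TAA 2), neither called, nor was -2.67 without the Dlk1-Dio3 miRNAs. A minimum of 1 CPM removed it from the fit. mmu-miR-3065-3p entered the fit only in some alternatives. Without a filter on low counts its log2 fold change was -2.22 (SE 0.98), and it was not called. Leaving out a library gave -2.53 (without control 1), -1.32 (without TAA 1) and -6.44 (without TAA 2), so its size was unstable. The number of miRNAs called was 107. Leaving out a library gave 49 (without TAA 2) to 131 (without control 2), with 54 without TAA 1; leaving out the Dlk1-Dio3 miRNAs gave 12, and the other scalings, filters and tools gave 84 to 137. Leaving out the Dlk1-Dio3 miRNAs took the number tested from 644 to 576, and the removed miRNAs can no longer be called. In that fit mmu-miR-3065-5p kept a log2 fold change of -2.67 (SE 0.55), against -2.70 (SE 0.58) in the main one. Why other calls were lost was not tested. Upper-quartile factors put the median over all miRNAs at -0.17 (log2) and took the share of calls that were higher from 84.1% to 72.2%; library size alone put that median at 0.12. The log2 strand ratio was 5.99 in control and 8.20 in TAA. It was 5.84 and 7.59 with 5 added to each count, and 6.12 and 8.61 from the main arms alone. With all ambiguous reads given to miR-3065 it was 1.50 and 1.36, a bound that the number of ambiguous reads largely sets. The groups then overlapped, and the turned order rested on TAA 2. Nearest patterns by correlation shared 2, 0 and 0 of 3 with those by distance, for miR-338-3p, miR-338-5p and miR-3065-5p.

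With the replicate number as a block, 110 miRNAs were called, and the 3 tested members kept their calls. Same-numbered libraries did not deviate together (r = -0.0051 across 644 miRNAs). A single correlation of replicate differences cannot exclude a pairing, and the labels name none. Depth limits miR-3065: at 0 to 34 counts a library, its arm shares could not be compared.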
